A study of Homo sapiens with 20 samples.

Results

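The BCL2 family was followed through light and heavy polysomes of BE(2)-C neuroblastoma cells after lncNB1 siRNA. The members were 10 genes matched by symbol to the transcript clusters of the array, BCL2, BCL2L1, MCL1, BAX, BAK1, BCL2L11, PMAIP1, BBC3, BID and BAD, and 9 of the 10 had a cluster among 21448 tested, 1 each. BBC3, which encodes PUMA, had no matched cluster and was not analysed here. All groups came from BE(2)-C, an established human line of neuroblastoma, a childhood tumour of the sympathetic nervous system, in which the oncogene MYCN is amplified. Cells were transfected for 48 h with control siRNA, with lncNB1 siRNA-1 or with lncNB1 siRNA-2, both directed at the long noncoding RNA lncNB1. They were then treated with cycloheximide, which holds ribosomes on mRNA, and separated on sucrose gradients into light polysomes (few ribosomes per mRNA) and heavy polysomes (many). Control cells gave 4 light and 4 heavy arrays, and each of the 2 siRNAs against lncNB1 gave 3 light and 3 heavy arrays, 20 in all. Whether replicates were separate cultures is not in the labels. The paper says that the heavy polysome experiments were repeated 3 times and does not mention separate cultures there. The p-values therefore reflect only the spread among these samples, which may be technical. How far lncNB1 itself was reduced was not analysed here.

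Proteins of the BCL2 family decide whether the outer mitochondrial membrane stays intact. Anti-apoptotic members (BCL2, BCL-XL from BCL2L1, and MCL1) bind and hold back the effectors BAX and BAK1, which otherwise form pores that release cytochrome c. The BH3-only members BIM (BCL2L11), NOXA (PMAIP1), BID and BAD, and PUMA, sense stress and either block the anti-apoptotic members or activate the effectors. NOXA mainly binds MCL1, and in neuroblastoma the dependence of cells on BCL2 or MCL1 has been of interest for BH3-mimetic drugs.

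Values are log2 intensities, normalized by robust multi-array average (RMA), so a difference of 1 is a factor of 2. RMA gives arrays normalized together nearly the same overall distribution, so differences are relative to the bulk of mRNAs on the array. Whether light and heavy arrays were normalized together is not given, and levels are not compared between genes. Array medians lay between 6.58 and 6.68. The 9 adrenergic neuroblastoma markers had means from 7.30 (TH) to 12.17 (MYCN). The 7 mesenchymal markers ran from 4.04 (YAP1) through FN1 (4.75), PRRX1 (5.16), CD44 (6.06), FOSL1 (6.51) and VIM (7.48) to SNAI2 (9.73), and the Schwann cell markers S100B and SOX10 were at 5.83 and 7.36. In these bulk samples fewer cells of a type and less RNA per cell cannot be told apart. Fractions stood closer together in replicate 1 than elsewhere. Slopes of a transfection's heavy minus light differences on the mean of the others were 0.527 to 0.727 in the 3 transfections of replicate 1 and 0.9 to 1.38 in the other 7.

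Among the members, PMAIP1 and BCL2L1 passed the test in a comparison of siRNA with control, and the sequence before their annotated starts is printed for that reason. The windows are the 250 bases upstream from RefSeq (GRCh38.p14), in which 9 of the 10 members had an entry. Capitals mark TGACG, the core of the cAMP response element bound by ATF and CREB factors, and TTTNNCGC, a loose form of the E2F motif, searched on both strands. The motifs do not overlap in these windows.
PMAIP1, chr18:59899746-59899995, + strand: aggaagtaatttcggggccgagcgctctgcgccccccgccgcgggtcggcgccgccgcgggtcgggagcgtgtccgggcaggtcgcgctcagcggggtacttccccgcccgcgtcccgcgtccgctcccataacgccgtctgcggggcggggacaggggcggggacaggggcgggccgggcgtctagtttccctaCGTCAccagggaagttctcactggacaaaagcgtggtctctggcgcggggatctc
BCL2L1, chr20:31723964-31724213, - strand: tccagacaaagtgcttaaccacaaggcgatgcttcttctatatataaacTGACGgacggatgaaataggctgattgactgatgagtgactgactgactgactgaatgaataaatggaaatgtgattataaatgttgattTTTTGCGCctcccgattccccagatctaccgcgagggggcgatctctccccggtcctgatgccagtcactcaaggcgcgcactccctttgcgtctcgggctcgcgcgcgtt
The PMAIP1 window held TGACG once, on the other strand, and the BCL2L1 window, the first of 2 for that gene, held both motifs once, while its other window held neither. TGACG was in 21.2% and TTTNNCGC in 5.92% of the 35116 upstream windows of that length, and the full element TGACGTCA was in 1.65% of them and in none of the members' windows. GGGCGG, the GC box bound by SP1, occurred 4 times in the PMAIP1 window and was in 42.6% of all windows. A match of letters is a description of the sequence and not a binding site.

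The comparison of siRNA with control in each fraction asks which mRNAs on polysomes changed after lncNB1 knockdown. siRNA-1 and siRNA-2 shared the same control arrays. With siRNA-1, PMAIP1 fell in both fractions and BCL2L1 rose in light polysomes, and the other 7 members measured did not pass in either. No member passed with siRNA-2 in either fraction.

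**Figure D1:**
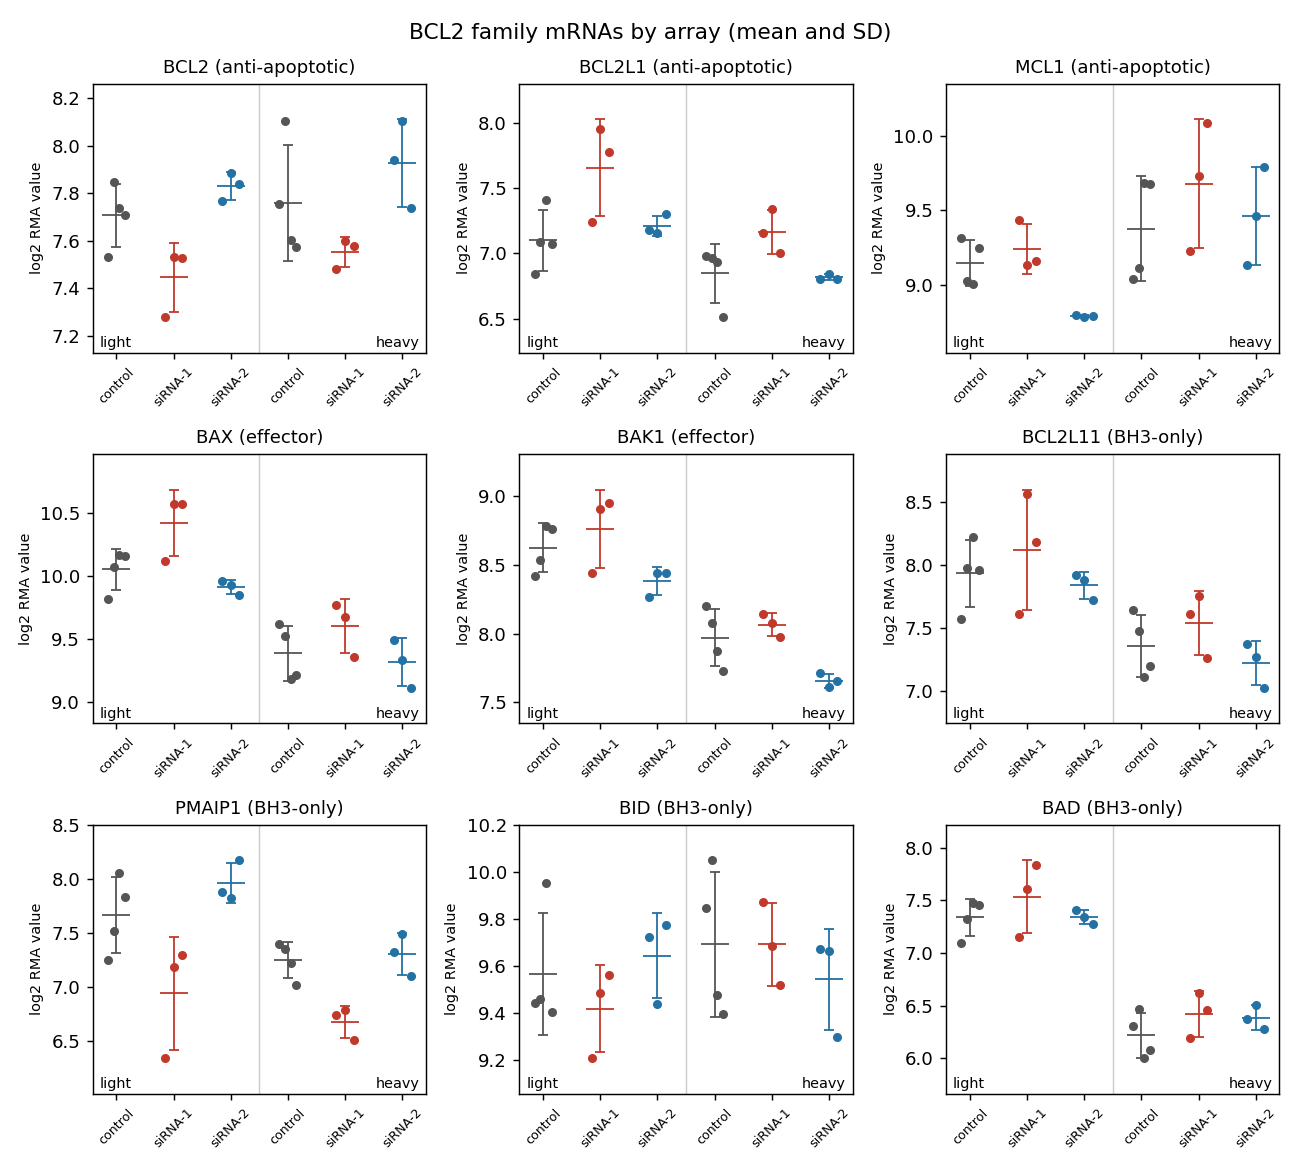
Log2 RMA value of each of the 9 members on every array, with light polysomes on the left and heavy on the right of each panel; points are arrays, the bar is the group mean and whiskers are the SD. PMAIP1 was lowest with siRNA-1 in both fractions, and BAD was lower in heavy than in light arrays throughout.

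PMAIP1 encodes NOXA. In heavy polysomes the control arrays were at 7.41, 7.36, 7.22 and 7.02, siRNA-1 at 6.74, 6.78 and 6.51, and siRNA-2 at 7.33, 7.49 and 7.10. Every siRNA-1 array was below every control array, while siRNA-2 arrays spread over the control range, 1 of them above it. The siRNA-1 mean was 6.68 ± 0.15 (SD, n = 3) against 7.25 ± 0.171 (SD, n = 4), a log2 difference of -0.57 (SE 0.138) and a 1.49-fold lower level (limma, adjusted p = 0.0196). For siRNA-2 the difference was 0.06 (95% confidence interval -0.24 to 0.35, adjusted p = 0.971). The siRNA-1 call in heavy polysomes was lost without control replicate 2 (adjusted p = 0.0582) or siRNA-1 replicate 4 (0.0727), with all 20 arrays fitted and transfection as a random block (0.0689), and with replicate 1 left out of every group (0.0668), and a requirement of 1.5-fold also ended it.

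In light polysomes PMAIP1 was at 7.26, 7.52, 8.06 and 7.83 in control arrays, at 6.34, 7.19 and 7.30 with siRNA-1 and at 7.88, 7.83 and 8.18 with siRNA-2. One siRNA-1 array, replicate 4, lay just above the lowest control array, and the siRNA-2 arrays lay within or slightly above the control range. The siRNA-1 difference was -0.72 (SE 0.222, adjusted p = 0.0464), 1.65-fold lower, and the siRNA-2 difference was 0.30 (adjusted p = 0.753). This light call was kept in only 2 of 10 leave-one-out fits, without control replicate 1 and without siRNA-1 replicate 4. Without siRNA-1 replicate 1, the lowest array, it was -0.42 (adjusted p = 0.213). Without siRNA-1 replicate 2, control replicates 2, 3 or 4 or any siRNA-2 array the adjusted p was between 0.0534 and 0.12. Array weights (0.0816) and leaving replicate 1 out of every group (0.0984) also ended it.

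BCL2L1 encodes the anti-apoptotic BCL-XL. In light polysomes it was at 6.84, 7.08, 7.41 and 7.07 in control arrays, at 7.24, 7.95 and 7.77 with siRNA-1 and at 7.18, 7.16 and 7.30 with siRNA-2. One siRNA-1 array, replicate 1, was below the highest control array. The difference was 0.55 (SE 0.168), a 1.47-fold higher level (limma, adjusted p = 0.0446). In heavy polysomes the control arrays were at 6.98, 6.96, 6.94 and 6.51, siRNA-1 at 7.15, 7.34 and 7.004, and siRNA-2 at 6.81, 6.84 and 6.80. The siRNA-1 arrays were all above the control arrays, and the difference of 0.32 did not pass (adjusted p = 0.199). The siRNA-2 differences were 0.11 in light (adjusted p = 0.901) and -0.03 in heavy polysomes (adjusted p = 0.985). The light call was kept without control replicate 3 or siRNA-1 replicate 1. It was lost without each of the other 8 arrays, with differences of 0.41 to 0.55 and adjusted p of 0.0542 to 0.212, the largest p without siRNA-1 replicate 2. It was also lost with arrays centred on their median (0.0578) and at 1.5-fold.

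Of the 9 members, 1 passed with siRNA-1 in heavy and 2 in light polysomes, beside 8.91% and 11.6% of all clusters, so the members' share (11.1% and 22.2%) rests on 1 and 2 genes. By direction, the lower member in heavy polysomes stood beside 3.23% of clusters, and in light polysomes the 1 higher and 1 lower member stood beside 5.27% and 6.32%. Groups did not overlap for 2 of 9 members in heavy polysomes (17.5% of clusters) and 0 of 9 in light polysomes (20.5%). With siRNA-2 it was 0 of 9 in both fractions, beside 0.415% and 0.41%, and at an unadjusted p under 0.05 it was 1 of 9 in each, near the share of all clusters at that threshold (8.63% in heavy and 9.80% in light polysomes). The member was BAK1 in heavy polysomes (-0.31, SE 0.128, adjusted p = 0.478), the 1 member without overlap there (9.74% of clusters), and MCL1 in light polysomes (-0.36, SE 0.127, adjusted p = 0.319). For the mean of both siRNAs 0 of 9 passed in either fraction, beside 1.62% in heavy and 2.95% in light polysomes. The median difference of the members with siRNA-1 was 0.19 in heavy and 0.14 in light polysomes, with 6 of 9 above 0 in each, and the median of all clusters was 0.00 in each.

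**Figure D2:**
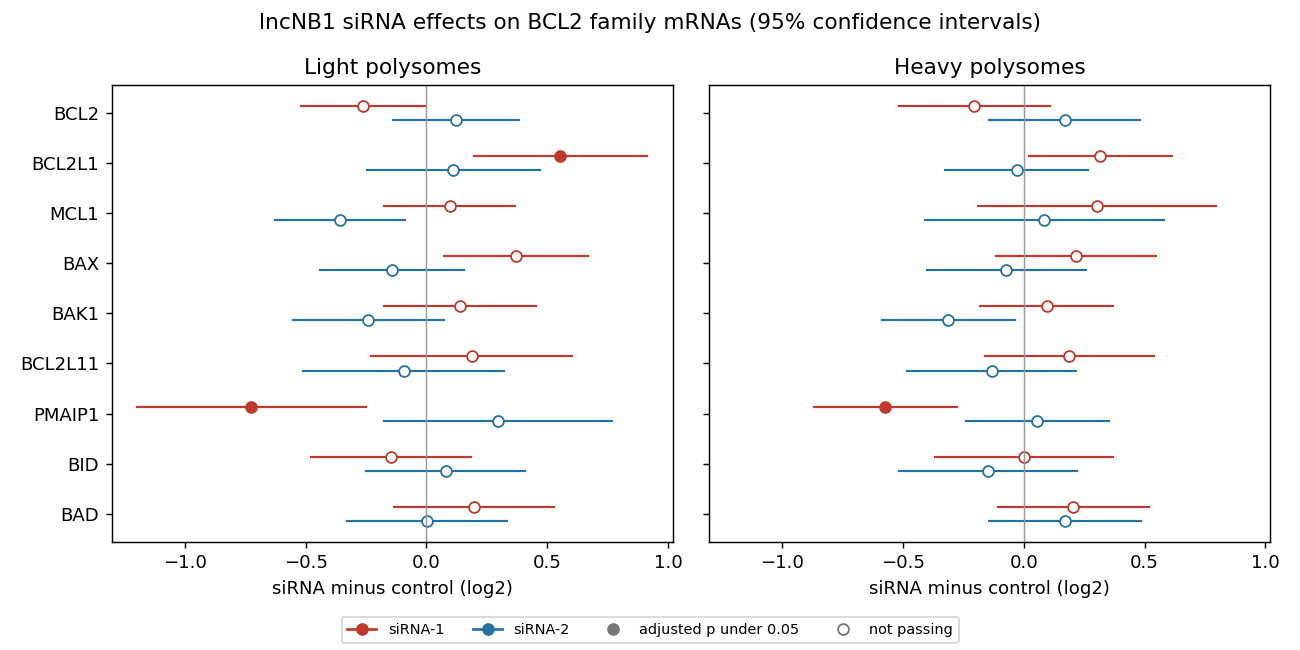
Difference of each siRNA from control on the log2 scale for the 9 members in light (left) and heavy (right) polysomes, with 95% confidence intervals. Filled points passed an adjusted p under 0.05: PMAIP1 in both fractions and BCL2L1 in light polysomes, with siRNA-1.

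BCL2, the founding anti-apoptotic member, was at means of 7.71, 7.45 and 7.83 in light polysomes for control, siRNA-1 and siRNA-2, and at 7.76, 7.55 and 7.93 in heavy polysomes. The siRNA-1 differences were -0.26 (adjusted p = 0.209) and -0.21 (adjusted p = 0.477). MCL1 is a short-lived anti-apoptotic protein. Its control arrays in light polysomes were at 9.31, 9.02, 9.002 and 9.25, siRNA-1 arrays at 9.43, 9.13 and 9.16, and siRNA-2 arrays at 8.80, 8.78 and 8.79. All siRNA-2 arrays were below all control arrays, yet the difference did not pass (adjusted p = 0.319), and 10.8% of clusters showed no overlap in this comparison. In heavy polysomes MCL1 averaged 9.38, 9.68 and 9.46, with wide spread within groups (SD 0.332 to 0.434).

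BAX, an effector, averaged 10.05, 10.42 and 9.91 in light and 9.39, 9.60 and 9.31 in heavy polysomes for control, siRNA-1 and siRNA-2. Its siRNA-1 difference in light polysomes was 0.37 (adjusted p = 0.11), and it passed without siRNA-1 replicate 1 (0.52, adjusted p = 0.0243), with quantile normalization repeated (0.45, adjusted p = 0.0269) and with array weights (0.43, adjusted p = 0.0493). BAK1, the other effector, averaged 8.62, 8.76 and 8.38 in light and 7.97, 8.07 and 7.66 in heavy polysomes. BCL2L11 (BIM) averaged 7.94, 8.12 and 7.84 in light and 7.36, 7.55 and 7.22 in heavy polysomes. BID, cleaved by caspase-8 to its active form, averaged 9.57, 9.42 and 9.65 in light and 9.69, 9.69 and 9.55 in heavy polysomes, the narrowest range of group means of the 9 (0.273). BAD averaged 7.34, 7.53 and 7.34 in light and 6.22, 6.42 and 6.39 in heavy polysomes. As reported, none of BCL2, MCL1, BAX, BAK1, BCL2L11, BID and BAD passed for siRNA-1 or siRNA-2 against control in either fraction. With the replicate number as a block, MCL1 passed with siRNA-1 in heavy polysomes (0.39, adjusted p = 0.0331).

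The direct comparison of siRNA-1 with siRNA-2 asks whether the siRNAs against the same RNA act alike on these genes. In heavy polysomes 1 of 9 members passed, lower with siRNA-1, beside 8.75% of clusters in either direction and 3.26% lower. In light polysomes 3 of 9 passed, beside 12.3%, with 2 higher (5.61% of clusters) and 1 lower (6.68%). PMAIP1 was lower with siRNA-1 than with siRNA-2 in both, by a log2 difference of -0.63 (SE 0.147, adjusted p = 0.0172) in heavy and -1.02 (SE 0.237, adjusted p = 0.0103, 2.03-fold) in light polysomes, and siRNA-1 arrays did not overlap siRNA-2 arrays in either. In light polysomes BAX was at 10.12, 10.58 and 10.58 with siRNA-1 against 9.96, 9.93 and 9.85 with siRNA-2, and the difference of 0.51 passed (adjusted p = 0.0362). MCL1 passed too, with a difference of 0.45 (adjusted p = 0.0402), and again the arrays did not overlap. BCL2 went the other way, at -0.38 in light (adjusted p = 0.0696) and -0.37 in heavy polysomes (adjusted p = 0.174), and did not pass. Members without overlap were 4 of 9 in each fraction, beside 25.2% of all clusters in heavy and 28.2% in light polysomes.

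The heavy call of PMAIP1 between the siRNAs was lost without siRNA-1 replicate 4 (adjusted p = 0.0549), siRNA-2 replicate 1 (0.0544) or siRNA-2 replicate 2 (0.0946), with the random block (0.0597) and without replicate 1 in every group (0.0506). Over single arrays left out, the light call of PMAIP1 was lost only without siRNA-2 replicate 3 (-0.91, adjusted p = 0.0552). BAX lost its call without siRNA-1 replicates 2 or 4 or any siRNA-2 array (adjusted p of 0.0754 to 0.13), and at 1.5-fold. MCL1 lost it without any siRNA-1 or siRNA-2 array or control replicate 4 (0.0532 to 0.131), with the random block (0.175), with arrays centred on their median (0.0507), without replicate 1 in every group (0.36, adjusted p = 0.232) and at 1.5-fold.

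**Figure D3:**
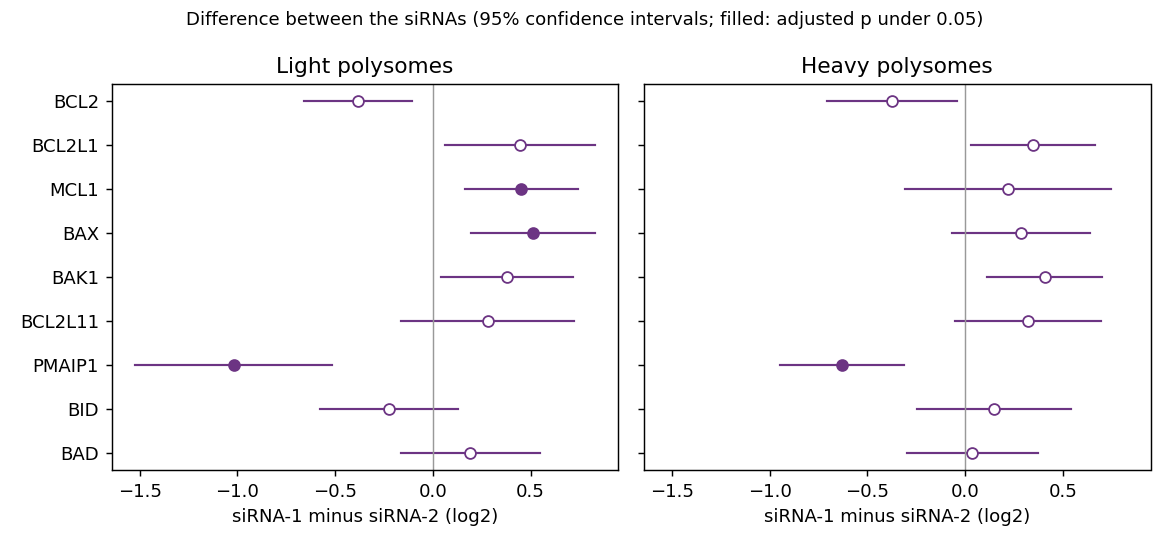
siRNA-1 minus siRNA-2 on the log2 scale for the 9 members in light (left) and heavy (right) polysomes, with 95% confidence intervals. PMAIP1 lies furthest below 0 in both panels, and BAX and MCL1 also passed in light polysomes.

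The comparison of heavy with light polysomes shows how the members' mRNAs were spread over ribosome loads. The fit took 1 paired difference, heavy minus light, from every one of 10 pairs of arrays taken as transfections. Arrays paired this way had a consensus correlation of 0.0361. In control cells BAD, BAX, BAK1 and BCL2L11 were lower in heavy polysomes, 4 of 9 members, where 12.8% of all clusters were lower and 27.3% passed in either direction. BAD, BAX and BAK1 stood below 0 in 10 of 10 transfections.

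BAD encodes a BH3-only protein that binds BCL2 and BCL-XL and is held inactive by phosphorylation. In control cells it was at 7.10, 7.32, 7.47 and 7.46 in light arrays and at 6.31, 6.47, 6.002 and 6.08 in heavy arrays, with no overlap. The heavy minus light difference was -1.12 (SE 0.134, limma, adjusted p = 4.75e-05), which is 2.18-fold lower. In siRNA-1 cells it was -1.11 (adjusted p = 0.000202), and -0.95 in siRNA-2 cells (adjusted p = 0.000882). The 10 transfections ranged from -1.47 to -0.79, and the BAD call was kept in all 10 leave-one-out fits in each of the groups.

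BAX was at 9.82, 10.07, 10.17 and 10.16 in light and 9.62, 9.52, 9.18 and 9.22 in heavy control arrays, and the groups did not overlap. Its difference was -0.67 in control (SE 0.153, adjusted p = 0.00427), -0.82 in siRNA-1 (adjusted p = 0.00307) and -0.60 in siRNA-2 cells (adjusted p = 0.0242). BAK1 was at 8.42, 8.54, 8.78 and 8.76 in light and 8.20, 8.08, 7.87 and 7.73 in heavy control arrays. The BAK1 difference was -0.66 in control (SE 0.148, adjusted p = 0.00387), -0.70 in siRNA-1 (adjusted p = 0.00675) and -0.73 in siRNA-2 cells (adjusted p = 0.00701). Both effectors therefore passed in all 3 kinds of cells. In control cells both calls were kept in all 10 leave-one-out fits. In siRNA-2 cells BAX was lost without any siRNA-2 transfection (adjusted p of 0.0578 to 0.153), and BAK1 without siRNA-2 replicate 2 (0.0667) or 3 (0.0587). In siRNA-1 cells BAX was lost without siRNA-1 replicate 4 (0.0537), and BAK1 without siRNA-1 replicate 2 (0.0578) or 4 (0.0821).

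BCL2L11 passed in control cells at -0.58 (adjusted p = 0.0223), in siRNA-1 cells at -0.58 (0.0454) and in siRNA-2 cells at -0.62 (0.0402), and 9 of 10 transfections were below 0. Its differences ran from -1.12 to 0.07. In control cells the call was lost without control replicate 2, 3 or 4 (adjusted p of 0.0557 to 0.145). In siRNA-1 cells it was lost without siRNA-1 replicate 2 or 4, control replicate 2 or 4 or any siRNA-2 transfection (0.0544 to 0.288). In siRNA-2 cells it was lost without any siRNA-2 transfection, control replicate 2 or siRNA-1 replicate 2 (0.0505 to 0.177). A trended, robust variance ended the siRNA-1 call (0.0522).

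With siRNA-1, 5 of 9 members passed, all lower in heavy polysomes (12.1% of clusters lower, 28.2% in either direction). The fifth was BCL2L1 at -0.49 (SE 0.16, adjusted p = 0.0324), lost without siRNA-1 replicate 2 (0.159) or 4 (0.244). With siRNA-2, 4 members were lower (10.6% of clusters) and 1 was higher (11.5%), beside 22% in either direction. The member that was higher was MCL1, at 8.80, 8.78 and 8.79 in light and 9.13, 9.46 and 9.80 in heavy siRNA-2 arrays, a difference of 0.67 (SE 0.212, adjusted p = 0.0337). MCL1 was above 0 in 8 of 10 transfections, and its difference was 0.23 in control (adjusted p = 0.41) and 0.44 in siRNA-1 cells (adjusted p = 0.142). The siRNA-2 call was lost without siRNA-2 replicate 2 (0.14) or 3 (0.25).

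BCL2 and BID did not pass in any of the 3 heavy and light comparisons. PMAIP1 was below 0 in 8 of 10 transfections, at -0.42 in control (adjusted p = 0.142), -0.26 in siRNA-1 (0.432) and -0.66 in siRNA-2 cells (0.0527). The siRNA-2 value lay at the threshold and its call depended on the setting. It passed in 9 of 10 alternatives, among them the unpaired fit (0.027), array weights (0.0151) and leaving out replicate 1 (0.0329), while the highest adjusted p over left-out transfections was 0.351. In control cells PMAIP1 passed without replicate 1 in every group (-0.60, adjusted p = 0.0191) or without control replicate 1 alone (0.0429). Members whose heavy and light arrays did not overlap were 3 of 9 in control cells (26.1% of all clusters), 3 in siRNA-1 cells (36.7%) and 7 in siRNA-2 cells (38.4%). In the less separated replicate 1, the median heavy minus light difference lay away from that of the other 7 transfections for most members. The ranges overlapped for each member except BAX (-0.47 to -0.20 in replicate 1 against -1.22 to -0.55 in the others). The median was 0.15 against -0.79 for PMAIP1, -0.21 against 0.68 for MCL1 and -0.00197 against -0.76 for BCL2L11. It was -0.09 against -0.50 for BCL2L1, -0.35 against -0.90 for BAX and -0.29 against -0.83 for BAK1. For BAD it was -0.97 against -0.99, for BCL2 0.20 against 0.05 and for BID 0.40 against -0.01. Without replicate 1 in every group, MCL1 in siRNA-1 cells passed at 0.76 (adjusted p = 0.00733). The part of this separation in the results was not tested.

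**Figure D4:**
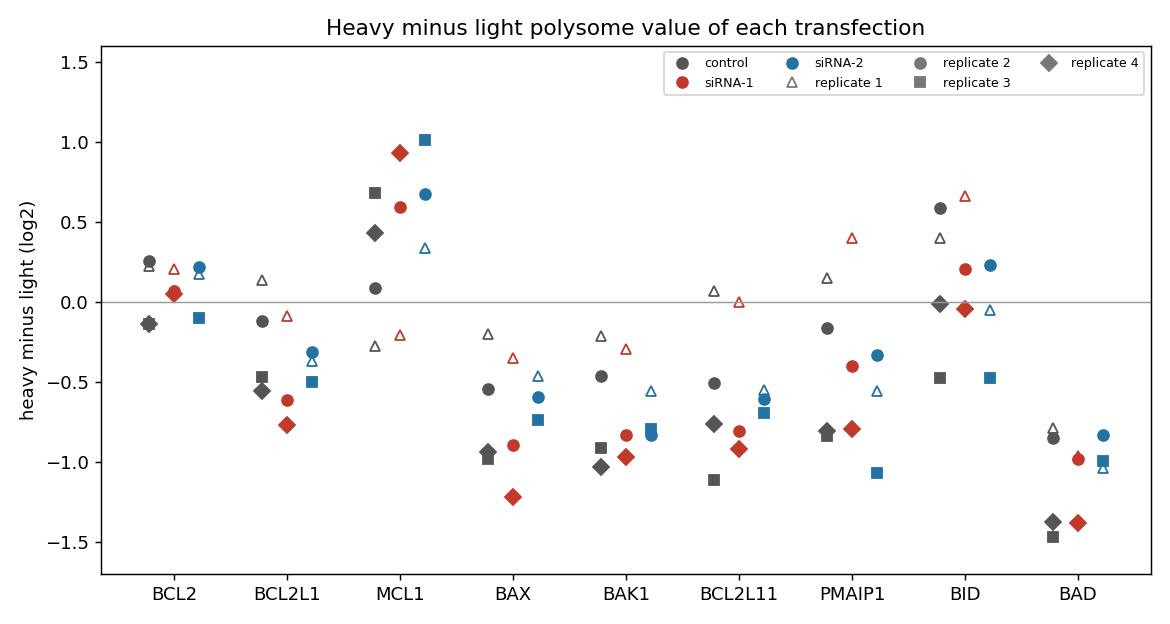
Heavy minus light log2 difference for each of the 10 transfections and 9 members, coloured by siRNA, with replicate 1 as open triangles. BAX, BAK1 and BAD lie below 0 in 10 of 10, and MCL1 above 0 in 8 of 10.

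The heavy-to-light shift asks whether an siRNA moved an mRNA between the fractions, apart from its level. No member passed for either siRNA, and 0% of all clusters did. At an unadjusted p under 0.05 there were 0 members, beside 1206 clusters (5.62%) for siRNA-1 and 542 (2.53%) for siRNA-2. For PMAIP1 the shift was 0.15 with siRNA-1 (95% confidence interval -0.49 to 0.80) and -0.24 with siRNA-2 (-0.88 to 0.41). For MCL1 it was 0.21 with siRNA-1 (-0.39 to 0.81) and 0.44 with siRNA-2 (-0.16 to 1.04).

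Ordered by group mean, PMAIP1 ran from siRNA-2 light (7.96) through control light, siRNA-2 heavy, control heavy and siRNA-1 light to siRNA-1 heavy (6.68), and each neighbouring pair overlapped. BAX, BAK1, BCL2L11 and BAD had their 3 light groups above their 3 heavy groups. The lowest light and the highest heavy group did not overlap for BAX, BAK1 and BAD, and did for BCL2L11. BAK1 also had its siRNA-2 heavy group apart below control heavy, and MCL1 its siRNA-2 light group apart below control light. For BCL2, BCL2L1, BCL2L11 and BID each neighbouring pair overlapped.

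By the root mean square difference of values centred over the 20 arrays, the clusters most like PMAIP1 were PPTC7 (0.166), NFE2L2 (0.177) and CDCA5 (0.186), and those most like BCL2L1 were ATP6V1G1 (0.123), WIPI2 (0.134) and ENOX2 (0.137). All points share the fractions and siRNAs of the 20 arrays.

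The other genes of the pathway were read from lists that had been written with earlier results of these data known. Among 3 further anti-apoptotic genes, BCL2L2 (BCL-w) did not pass against control but was lower in heavy than light control polysomes (-0.78, adjusted p = 0.000777). BOK, a further effector, was also lower there (-0.46, adjusted p = 0.00944). In that comparison 12.8% of all clusters were lower and 27.3% passed in either direction. The further BH3-only genes BIK, BMF and HRK passed in none of the 13 comparisons. Of 9 related genes, 1 passed with siRNA-1 in heavy polysomes, beside 8.91% of all clusters, and 0 in light polysomes (11.6%). It was BNIP3L, a mitophagy receptor, which rose (0.68, adjusted p = 0.0191). With siRNA-2, 0 of 9 passed in either fraction, beside 0.415% and 0.41%.

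Downstream of the membrane, 14 of 17 listed released factors and executioners were measured. With siRNA-1, 3 were higher and 2 lower in heavy polysomes and 2 higher and 3 lower in light polysomes, beside 8.91% and 11.6% of all clusters, and 0 of 14 passed with siRNA-2, beside 0.415% and 0.41%. Their median siRNA-1 difference was -0.06 in heavy and -0.00325 in light polysomes. APAF1, the scaffold of the apoptosome, fell with siRNA-1 by 0.88 in heavy (adjusted p = 0.00239) and 0.97 in light polysomes (adjusted p = 0.00183), and ENDOG, a mitochondrial nuclease, fell by 0.63 in light polysomes. Of the genes outside the naming rule, chosen after their values were seen, the initiator caspases CASP8 (1.15 in heavy, 1.05 in light) and CASP9 (0.72 and 0.62) rose in both fractions, the caspase inhibitor XIAP rose in heavy polysomes (0.49), and DIABLO, which counters XIAP, fell in both (by 0.66 and 0.53).

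Of 21 measured regulators of transcription of the members, 1 was higher and 1 lower with siRNA-1 in heavy, and 3 higher and 2 lower in light polysomes, with medians of 0.00586 and -0.00399, beside 8.91% and 11.6% of all clusters. E2F1 fell in both (by 0.71, adjusted p = 0.00873, and by 0.50, adjusted p = 0.0394), and JUN (0.77) and SP1 (0.65) rose in light polysomes. With siRNA-2, 0 of 21 passed against control in either fraction, beside 0.415% of all clusters in heavy and 0.41% in light polysomes. For the mean of both siRNAs 1 of 21 was lower in heavy polysomes and 0 passed in light, beside 1.62% and 2.95% of all clusters. ATF4, a stress-response factor, was lower with siRNA-1 than siRNA-2 in heavy (-0.94, adjusted p = 0.0103) and light polysomes (-0.65, adjusted p = 0.00683). Of 22 measured regulators of member protein turnover, 2 were higher and 1 lower with siRNA-1 in heavy and 2 higher and 3 lower in light polysomes, with medians of 0.04 and -0.07, beside 8.91% and 11.6% of all clusters. USP13, a deubiquitinase of MCL1, fell in both (by 0.76 and 1.16). Here too 0 of 22 passed with siRNA-2 against control in either fraction, beside 0.415% and 0.41% of all clusters. For the mean of both siRNAs 1 of 22 was lower in heavy polysomes, and 1 was higher and 2 were lower in light polysomes. The shares of all clusters for that mean were 1.62% and 2.95%. HUWE1, a ubiquitin ligase of MCL1, did not pass against control but was higher in heavy than light control polysomes (0.85).

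Of 13 genes listed as partners of the mitochondrial outer membrane, 0 passed with siRNA-1 in heavy polysomes, beside 8.91% of all clusters. In light polysomes 1 passed, BCAP31 (0.50, adjusted p = 0.0499), beside 11.6%. With siRNA-2, 0 of 13 passed in either fraction, beside 0.415% and 0.41%. In control cells 8 were higher and 3 lower in heavy than in light polysomes, where 27.3% of all clusters passed in either direction and 12.8% were lower, and the median was 0.49 against -0.02 for all clusters. The channel VDAC1 (0.82) and BCAP31 (1.24) were higher, and the fission factors FIS1 (-1.07) and MFF (-0.90) were lower.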

How the data were processed

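The authors processed the Clariom S arrays with RMA (oligo) and deposited log2 values, 1 per transcript cluster and array, which were used as given. R 3.5.3 and limma 3.38.3 are credited to the submitters' processing notes. Joint or separate normalization of the fractions, and the genome build, are not given in the sources used here. From 27189 rows, 5741 that were controls or other probe sets were dropped, which left 21448 clusters, 17709 of them with 1 symbol.

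Groups and replicate numbers came from the titles, and the members and lists were chosen with earlier results of these data known. Tests used R 4.3.3 and limma 3.58.1 (eBayes), p-values were adjusted by Benjamini-Hochberg across every cluster, and a call is an adjusted p under 0.05. siRNA comparisons were fitted within the 10 arrays of a fraction. Heavy against light and the shift used heavy minus light differences, pairing arrays by siRNA and replicate number as if from 1 transfection; the labels leave this unstated. Genes outside the family were named if they passed in at least 1 of 13 comparisons, at most 5 per list. Outside this rule, CASP8, CASP9, XIAP and DIABLO were named after their values were seen, and BIK, BMF and HRK although they passed in none. The most alike clusters were ranked by root mean square difference. Fits were tested on simulated data. The number of arrays limits the precision. 11 alternatives were tried, with each array or transfection left out in turn.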

Additional observations from a re-analysis of the deposited data

Results flagged for a closer look

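Among 18 member and fraction groups of 4 control arrays, 2 had an array far from the others by Dixon's criterion, and chance marks about 1 group in 20. BCL2L1 in heavy polysomes was 6.51 in control replicate 4, against 6.94 to 6.98 in the others, and BID in light polysomes was 9.95 in control replicate 3, against 9.41 to 9.46. The siRNAs differed from each other, by a test of the difference, for PMAIP1 in heavy (-0.63, adjusted p = 0.0172) and light polysomes (-1.02, adjusted p = 0.0103), and in light polysomes for MCL1 (0.45, adjusted p = 0.0402) and BAX (0.51, adjusted p = 0.0362).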

How the results depend on the processing

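No called member effect reversed its sign, but 32 of 117 member effects by comparison that were never called changed sign in some alternative. Of 21 calls, 149 of 210 leave-one-out refits and 183 of 203 other alternatives kept the call, and BAD kept its 3 in each. The number of members called with siRNA-1 against control in heavy polysomes, 1 as reported, became 3 with the replicate number as a block, and 0 with 20 arrays and transfection as a random block, without replicate 1 in every group, or at 1.5-fold with an unadjusted p under 0.05. The 2 in light polysomes became 1 with arrays centred on their median, without replicate 1, or at 1.5-fold, and 3 with quantile normalization repeated, which added BAX. With array weights it stayed at 2, with BAX called and PMAIP1 not. Between the siRNAs, the 1 in heavy polysomes became 3 with the block or array weights and 0 with the random block or without replicate 1. The 3 in light polysomes became 1 with the block or at 1.5-fold, and 5 with array weights. The 5 in siRNA-1 cells, heavy against light, became 3 at 1.5-fold. Over single arrays left out, the counts ran from 0 to 1, 0 to 2, 0 to 1 and 0 to 4 for those 4 siRNA comparisons, from 3 to 5, 1 to 6 and 1 to 6 for heavy against light in control, siRNA-1 and siRNA-2 cells, and stayed at 0 elsewhere.

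Over alternatives other than left-out arrays, the count of all clusters called against control ran from 1518 to 3501 in heavy (1912 as reported) and 1482 to 2849 in light (2486) for siRNA-1, 89 to 590 (89) and 21 to 304 (88) for siRNA-2, and 11 to 1569 (347) and 5 to 966 (633) for their mean. Between the siRNAs it ran from 1745 to 3476 (1877) and 1451 to 3342 (2635), and for heavy against light from 3358 to 7077 (5864), 4073 to 7513 (6043) and 3361 to 6500 (4724) in control, siRNA-1 and siRNA-2 cells. The shift, at 0, reached 367 and 124 at 1.5-fold. Deviations from group means correlated from 0.0195 to 0.62 over 8 heavy pairs of same-numbered arrays and from -0.104 to 0.404 over 8 light pairs. Between differently numbered arrays they ran from -0.557 to 0.444 over 25 heavy and from -0.435 to 0.192 over 25 light pairs. Same-numbered pairs leaned higher in both fractions, though the ranges overlapped. The paper names no block, so the block was only an alternative. It added BCL2L1 (0.34, adjusted p = 0.0471) and MCL1 (0.39, 0.0331) in heavy polysomes with siRNA-1 against control, and BCL2L1 (0.0225) and BAK1 (0.029) against siRNA-2. In light polysomes it ended the calls between the siRNAs of MCL1 (0.42, 0.074) and BAX (0.47, 0.0629). For heavy against light it added PMAIP1 in control (0.0454) and siRNA-2 cells (0.00248), MCL1 in siRNA-1 cells (0.00919) and BCL2L1 in siRNA-2 cells (0.0166). The planned use of a lower-mean cluster could not be run, since each member had 1 cluster.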
